A study of Rattus norvegicus with 9 samples.

Results

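The genes examined were 8 of the routes to phosphatidylcholine and phosphatidylethanolamine, among 15565 genes in both deposited tables: the kinases Chka, Chkb and Etnk1, the CDP-forming enzymes Pcyt1a and Pcyt2, the phosphotransferases Chpt1 and Cept1, and Pemt. They were selected by their place in the pathway and by being listed, with raw read counts for all 9 libraries, in both tables, and all 8 named symbols met that rule. The set was put together with earlier results of these data known, in which Chka stood out under high-fat diet, so its fold changes are given as a description and not as independent support. All 8 passed the filter on low counts and are among the 12041 genes tested.

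Phosphatidylcholine and phosphatidylethanolamine are the main phospholipids of cell membranes and of the coat of lipoproteins and lipid droplets. In the Kennedy pathway, choline or ethanolamine is phosphorylated by a kinase, activated to a CDP-intermediate, and joined to diacylglycerol by a phosphotransferase. The liver has another route, in which PEMT methylates phosphatidylethanolamine to phosphatidylcholine with S-adenosylmethionine as the methyl donor.

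The libraries were made from liver RNA of male SD rats, an outbred laboratory strain, in 3 groups of 3. The first group received a normal diet, the second received a high-fat diet for 8 weeks as a model of non-alcoholic fatty liver disease, and the third was treated with Smilax china L., abbreviated SCL, a climbing plant whose rhizome is used in Chinese medicine. The series' design text names an SCS group in place of SCL, and the 2 are taken here to be the same. The source names call the normal-diet libraries rat wt, the high-fat libraries rat model and the third group rat treated with SCL. The labels give neither the dose of SCL nor the diet of the SCL rats. Titles of some high-fat and SCL libraries carry numbers that differ from their replicate numbers, and the title of high-fat replicate 1 has another prefix than those of the other high-fat libraries, with no meaning given for either. Nothing in the labels says that each library is a separate animal, and the p-values below reflect only how far these libraries spread, which may be technical.

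The libraries held 12413774 to 15521648 reads on genes. The share of those reads on the 13 mitochondrial transcripts was 4.63%, 3.85% and 11.2% in normal-diet replicates 1, 2 and 3. It was 4.90%, 18.8% and 44.1% in high-fat replicates 1, 2 and 3, and 10.97%, 49.0% and 7.04% in the SCL replicates. High-fat replicate 3 and SCL replicate 2 therefore stand apart with more than 40% mitochondrial reads, and values without them are given for the 8 genes, and for listed phospholipid, regulator and clock genes where a direction turns or a fold moves by more than 1.5 times. The mean share was 6.54% ± 4.01 (SD, n = 3) on normal diet and 22.6% ± 19.9 (SD, n = 3) on high-fat diet, with p = 0.2 in an exact two-sided permutation test that cannot go below 0.1 for 3 against 3. The summed level of 12 hepatocyte markers was 166570 to 202290 CPM (counts scaled to library size) on normal diet, 80312 to 162430 on high-fat diet and 81790 to 246690 with SCL, with none of the 12 at 0 in any group. Its 2 lowest values, 80312 and 81790 CPM, were in the 2 libraries over 40% mitochondrial reads. The summed level of 12 Kupffer cell and macrophage markers was 690 to 896 CPM on normal diet, 400 to 813 on high-fat diet and 383 to 804 with SCL. In such bulk samples, fewer cells of a type and less RNA per cell cannot be told apart.

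The sequences upstream of 3 members show how different their starts are, and are given because these members had the largest differences between high-fat and normal diet. They are the 250 bases before the start, 5′ to 3′ on the gene's own strand, from RefSeq on the rat build GRCr8, with CpG dinucleotides in capitals. Chka lies on the plus strand (chr1:210505865-210506114), Chkb on the minus strand (chr7:122383950-122384199) and Pemt on the minus strand (chr10:45341948-45342197).
Chka: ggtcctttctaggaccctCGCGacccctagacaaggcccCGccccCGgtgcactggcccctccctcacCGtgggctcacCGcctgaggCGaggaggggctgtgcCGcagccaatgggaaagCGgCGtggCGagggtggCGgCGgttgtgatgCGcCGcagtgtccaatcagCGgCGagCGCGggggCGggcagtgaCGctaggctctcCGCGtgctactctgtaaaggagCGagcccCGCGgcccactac
Chkb: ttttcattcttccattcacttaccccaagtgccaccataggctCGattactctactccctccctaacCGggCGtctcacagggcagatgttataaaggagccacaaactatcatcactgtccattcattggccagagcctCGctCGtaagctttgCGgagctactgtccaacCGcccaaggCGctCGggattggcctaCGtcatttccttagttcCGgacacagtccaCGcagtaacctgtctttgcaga
Pemt: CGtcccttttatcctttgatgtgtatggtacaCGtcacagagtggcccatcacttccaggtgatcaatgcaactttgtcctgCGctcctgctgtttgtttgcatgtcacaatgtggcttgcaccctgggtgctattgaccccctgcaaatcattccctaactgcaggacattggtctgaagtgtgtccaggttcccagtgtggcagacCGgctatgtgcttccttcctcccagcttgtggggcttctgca

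The Chka window had 26 CpG and a G+C share of 70.8%, the Chkb window 12 CpG and 52.0%, and the Pemt window 4 CpG and 52.4%. Over the 33469 rat promoters in the RefSeq table, the median was 5 CpG (quartiles 2 and 15) and 51.2% G+C (quartiles 44.0% and 60.0%). Chka is thus above the upper quartile on both measures, whereas Chkb and Pemt lie inside the quartiles on both. The other 5 members had 20 to 32 CpG and 64.4% to 73.6% G+C, all above the upper quartiles. The motifs searched on both strands were the E-box CACGTG, bound by clock and SREBP factors among others, the D-box TTATGTAA and the sterol element core TCACCCCAC. None of the 8 windows held any of them, against 5.59%, 0.828% and 0.409% of all promoters respectively. That says only that these letters are not in these windows.

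Levels of different genes were compared as the authors' FPKM, which are per transcript length. Averaged over the 9 libraries, the order was Pemt (211.6 FPKM), Pcyt2 (126.0), Chka (91.1), Chpt1 (67.6), Cept1 (38.6), Chkb (16.2), Etnk1 (8.43) and Pcyt1a (5.70). Neighbours in that order overlapped over the libraries, so no step between adjacent genes exceeds their spread over all 9. Pemt ranked between 1 and 3 in every library, and was first in all 3 normal-diet libraries, in high-fat replicate 1 and in SCL replicates 1 and 3. Pcyt1a, which makes CDP-choline and is often described as rate-limiting in the choline branch, ranked 7 or 8 in every library, between 4.15 and 8.84 FPKM. Chka moved most in rank. It ranked 5 in each normal-diet library, at 29.4, 38.8 and 37.7 FPKM, and first in high-fat replicates 2 and 3, at 186.4 and 246.4 FPKM. Its highest FPKM was 8.38 times its lowest, against 5.52 times for Pemt, 4.43 for Chpt1, 3.90 for Chkb and at most 2.92 for the other 4.

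**Figure D1:**
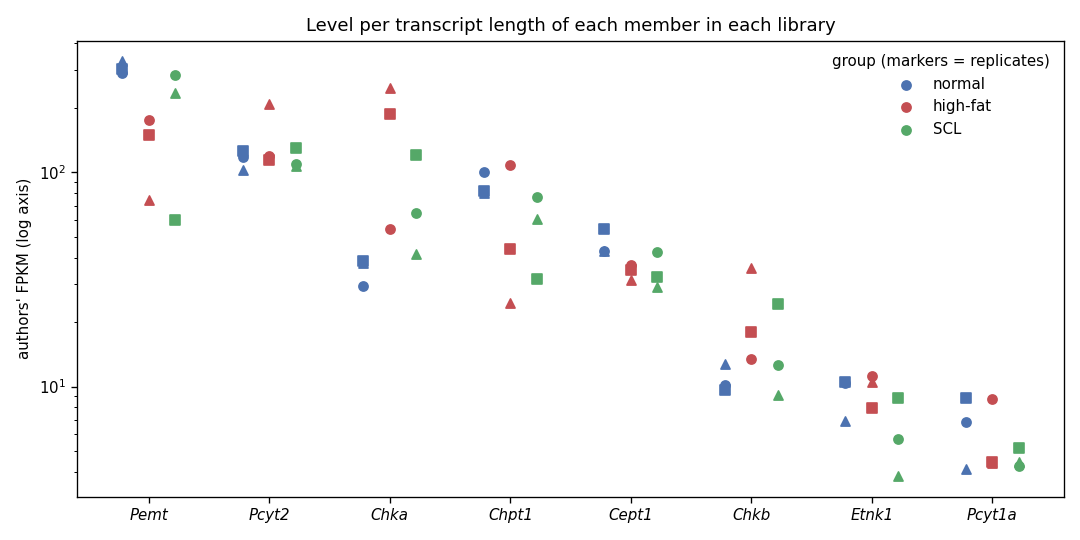
The vertical log axis gives the authors' FPKM of each of the 8 genes in each of the 9 libraries (colour: diet or treatment group; circle, square and triangle: replicates 1, 2 and 3). Pemt and Pcyt2 lie highest and Pcyt1a lowest, and Chka spreads from 29.4 to 246.4 FPKM.

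Chka encodes choline kinase alpha, which phosphorylates choline and, more weakly, ethanolamine. On the CPM scale with TMM scaling of the library sizes, used below for each gene against itself, Chka was at 69.4, 87.7 and 97.6 CPM in normal-diet replicates 1, 2 and 3. It was at 114.2, 507.4 and 710.2 CPM in the high-fat replicates and at 162.5, 374.5 and 121.3 CPM with SCL. Every high-fat and every SCL library thus lay above every normal-diet library, but high-fat replicate 1 was only just above and the high-fat and SCL groups overlapped. The group means were 84.9 ± 14.3 CPM on normal diet, 443.9 ± 303.0 on high-fat diet and 219.4 ± 135.9 with SCL (SD, n = 3 each).

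Between high-fat and normal diet, the edgeR log2 difference of Chka was 2.39 (SE 0.63), or 5.23-fold. It did not pass the threshold of 0.05 in edgeR's quasi-likelihood test with Benjamini-Hochberg adjustment over all tested genes (unadjusted p = 0.0030, adjusted p = 0.75). It did pass in DESeq2 (log2 difference 2.38, SE 0.59, adjusted p = 0.026) and in limma-voom with quality weights (2.53, SE 0.39, adjusted p = 0.035). The authors' deposited table lists Chka at a log2 value of -2.37 for normal over high-fat diet, with an adjusted p of 0.013. The size without the 2 libraries over 40% mitochondrial reads was 1.87 in DESeq2 (SE 0.55, adjusted p = 0.10) and 1.53 in limma-voom (SE 0.51, adjusted p = 1.00), so the call was lost in both. With the mitochondrial share as a covariate it was 1.10 in DESeq2 (SE 0.35, adjusted p = 0.19). When 1 library was left out at a time, DESeq2 kept the call only without high-fat replicate 1 (2.82, adjusted p = 2.2e-06), the library with the other title prefix. That fit called 825 genes in all, against 50 with all libraries. Without high-fat replicate 3 the log2 difference was 1.86 (adjusted p = 0.42), without high-fat replicate 2 it was 2.27 (0.20), and without normal-diet replicates 1, 2 and 3 the adjusted p was 0.27, 0.22 and 0.066.

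Chkb encodes choline kinase beta, the other choline kinase, best known for muscle. It was at 15.5, 14.2 and 21.4 CPM on normal diet, 18.4, 32.0 and 66.9 on high-fat diet, and 20.7, 49.0 and 17.3 with SCL. High-fat replicate 3 and SCL replicate 2 were the highest, and the groups overlapped. The log2 difference between high-fat and normal diet was 1.19 (SE 0.51, edgeR unadjusted p = 0.039, adjusted p = 0.91), 0.56 without the 2 libraries over 40% mitochondrial reads, and 0.24 with the mitochondrial share as a covariate. In the RefSeq annotation Chkb overlaps a long non-coding RNA, which is no row of the tables, and lies next to Cpt1b, a carnitine palmitoyltransferase, with which reads could be shared. Cpt1b was at 0.67, 1.15 and 3.04 CPM on normal diet, 0.84, 3.06 and 18.3 on high-fat diet, and 2.18, 2.72 and 0.88 with SCL. Its level was thus below that of Chkb in each library and highest in high-fat replicate 3.

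Etnk1 encodes ethanolamine kinase, which starts the ethanolamine branch. Its values were 56.4, 54.4 and 41.1 CPM on normal diet, 53.7, 49.2 and 68.9 on high-fat diet, and 32.7, 62.7 and 25.4 with SCL. SCL replicates 1 and 3 were the lowest of the 9 and SCL replicate 2 was second only to high-fat replicate 3. The edgeR log2 difference of SCL from high-fat diet was -0.51 (SE 0.34, unadjusted p = 0.17), and without the 2 libraries over 40% mitochondrial reads it was -0.83 (SE 0.26, unadjusted p = 0.014, adjusted p = 0.91). Against normal diet the corresponding values were -0.33 (SE 0.34) with all libraries and -0.81 (SE 0.25, edgeR unadjusted p = 0.011, adjusted p = 0.66) without those 2.

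**Figure D2:**
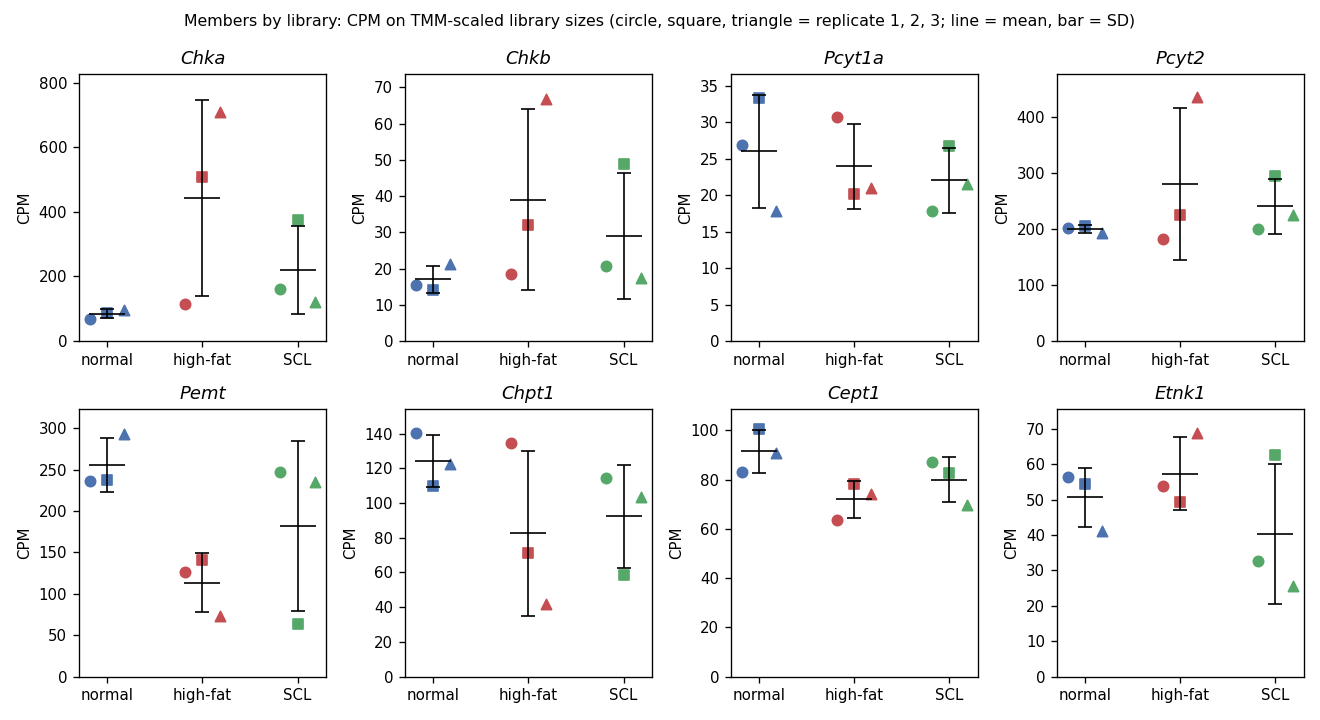
Each panel plots 1 gene in CPM on TMM-scaled library sizes, from 0, with 3 libraries per group as points (circle, square and triangle for replicates 1, 2 and 3), the mean as a line and the SD as a bar. For Chka the high-fat libraries spread from 114.2 to 710.2 CPM while the normal-diet libraries lie between 69.4 and 97.6, and for Pemt all 3 high-fat libraries lie below all 3 normal-diet libraries.

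The 2 CDP-forming enzymes differed in level but showed small differences between groups. Pcyt1a was at 26.9, 33.3 and 17.9 CPM on normal diet, 30.7, 20.1 and 21.0 on high-fat diet, and 17.8, 26.7 and 21.6 with SCL. The groups overlapped fully, and the log2 difference between high-fat and normal diet was -0.12 (SE 0.31). In the RefSeq annotation Pcyt1a overlaps long non-coding RNAs that have no counts here. Pcyt2, which makes CDP-ethanolamine, was at 202.2, 206.2 and 192.6 CPM on normal diet, 182.7, 224.9 and 436.2 on high-fat diet, and 200.1, 295.5 and 225.9 with SCL. High-fat replicate 3 and SCL replicate 2 were again the highest libraries. The log2 difference of Pcyt2 between high-fat and normal diet was 0.49 (SE 0.35) with all libraries and 0.019 (SE 0.21) without the 2 over 40% mitochondrial reads.

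Of the phosphotransferases, Chpt1 makes phosphatidylcholine, whereas Cept1 accepts both CDP-choline and CDP-ethanolamine. Chpt1 was at 140.2, 110.0 and 122.5 CPM on normal diet, 134.8, 70.9 and 41.8 on high-fat diet, and 114.2, 58.8 and 103.7 with SCL. Its 3 lowest values were in the 3 libraries with the highest mitochondrial share, and the groups overlapped. The log2 difference between high-fat and normal diet was -0.59 (SE 0.41), and -0.28 (SE 0.30) without the 2 libraries over 40% mitochondrial reads. Cept1 was at 83.0, 100.6 and 90.8 CPM on normal diet, 63.7, 78.4 and 74.0 on high-fat diet, and 87.2, 82.7 and 69.7 with SCL. All 3 high-fat libraries lay below all 3 normal-diet libraries, with a log2 difference of -0.35 (SE 0.23, edgeR adjusted p = 0.91), and of -0.37 (SE 0.22) without the 2 libraries. In the RefSeq annotation Cept1 overlaps Dram2 (log2 difference -0.25), and Chpt1 overlaps Gnptab (0.11) and Sycp3 (0.78). The labels do not say whether reads were counted by strand, so reads of such pairs may be mixed.

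Pemt encodes phosphatidylethanolamine N-methyltransferase, which is found mainly in hepatocytes. It was at 235.7, 237.4 and 293.3 CPM on normal diet, 126.2, 140.5 and 73.4 on high-fat diet, and 247.5, 63.9 and 234.8 with SCL. Every high-fat library lay below every normal-diet library, whereas SCL replicates 1 and 3 lay close to the normal-diet libraries and SCL replicate 2 was the lowest of all 9. The means were 255.5 ± 32.8, 113.4 ± 35.3 and 182.1 ± 102.5 CPM (SD, n = 3 each).

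Between high-fat and normal diet, Pemt had a log2 difference of -1.17 (SE 0.47), or 2.25-fold lower, with an edgeR unadjusted p of 0.030 and an adjusted p of 0.91. The authors' deposited table gives 1.18 for normal over high-fat diet, with an adjusted p of 0.10. Without the 2 libraries over 40% mitochondrial reads the log2 difference was -0.94 (SE 0.22, edgeR unadjusted p = 0.0031, adjusted p = 0.71), and with the mitochondrial share as a covariate it was -0.73 (SE 0.43). High-fat replicate 1, with 4.90% mitochondrial reads, was at 126.2 CPM, beside 235.7 and 237.4 CPM in normal-diet replicates 1 and 2 at 4.63% and 3.85%. Chka in the same 3 libraries was at 114.2, 69.4 and 87.7 CPM. This sets out 1 high-fat library only, the one with the other title prefix. The summed hepatocyte markers also did not overlap between high-fat diet (80312 to 162430 CPM) and normal diet (166570 to 202290 CPM). With SCL that sum was 81790 to 246690 CPM, lowest in replicate 2. The part of the hepatocyte marker level or of the mitochondrial share in the Pemt values of any library was not tested. In the RefSeq annotation Pemt overlaps a pseudogene that has no counts here. Rasd1, which lies next to Pemt without overlapping it and encodes a Ras-like protein induced by glucocorticoids, was at 2.44, 4.32 and 12.6 CPM on normal diet, 2.46, 24.7 and 80.5 on high-fat diet, and 4.15, 71.0 and 2.90 with SCL. It was highest in high-fat replicate 3 and SCL replicate 2, the libraries with the lowest Pemt.

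**Figure D3:**
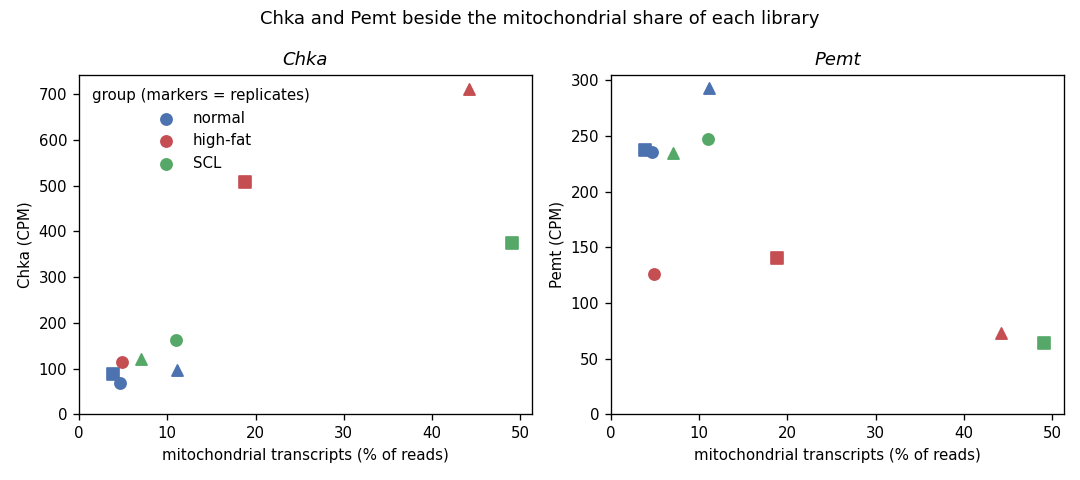
The horizontal axes give the mitochondrial share of reads in % and the vertical axes the CPM of Chka (left) and Pemt (right), 1 point per library (colour: group; circle, square and triangle: replicates 1, 2 and 3). The 3 libraries with the highest shares (18.8%, 44.1% and 49.0%) hold the 3 highest Chka values, from 374.5 to 710.2 CPM, and the 2 highest shares hold the 2 lowest Pemt values, 73.4 and 63.9 CPM.

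Counted together for high-fat against normal diet, none of the 8 genes was called by edgeR at an adjusted p under 0.05, against a background of 0.0083% of all tested genes, 1 gene (Tm7sf2, a sterol reductase). Of the 8, 3 passed an unadjusted p under 0.05, Chka and Chkb higher and Pemt lower, where 4.32% of all tested genes did. Groups that did not overlap were seen for 3, Chka higher and Pemt and Cept1 lower, where 10.6% of all tested genes did. DESeq2 called 1 of the 8, Chka, against 0.416% of the genes it tested, and limma-voom also called Chka, against 0.216%. Since the genes were put together with this comparison known, nothing is read from these shares. The median log2 difference over the 8 genes was 0.03, the same as over all tested genes, with 4 positive and 4 negative values.

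SCL treatment was set against high-fat diet in the same fit, and this comparison shares the high-fat libraries with the previous one. Chka had a log2 difference of -1.02 (SE 0.60), Pemt 0.68 (SE 0.46), Chkb -0.43 (SE 0.50) and Chpt1 0.16 (SE 0.41). Etnk1 is given above, and Cept1 (0.15), Pcyt1a (-0.12) and Pcyt2 (-0.23) were smaller than their SE of 0.23, 0.31 and 0.35. All 8 had an edgeR adjusted p of 1.00. None of the 8 was called by edgeR (background 0.0%), by limma-voom (background 0.0%) or by DESeq2 (background 0.00832%, the gene Eml5). No member passed an unadjusted p under 0.05 in edgeR (background 1.95%) and none had groups that did not overlap (background 4.78%). The median over the 8 was -0.17, against -0.03 over all tested genes. Without the 2 libraries over 40% mitochondrial reads, the Pemt difference was 0.85 (SE 0.24, edgeR unadjusted p = 0.0078, adjusted p = 0.91) and the Chka difference -1.13 (SE 0.60).

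SCL against normal diet shares libraries with both other comparisons. Chka had a log2 difference of 1.37 (SE 0.61, edgeR unadjusted p = 0.046, adjusted p = 0.66), or 2.58-fold, and 0.73 (SE 0.53) without the 2 libraries over 40% mitochondrial reads. The other 7 lay between -0.49 (Pemt, SE 0.46) and 0.76 (Chkb, SE 0.50). Without those 2 libraries, Pemt was at -0.093 (SE 0.22) and Chkb at 0.15 (SE 0.31). No member was called by edgeR (background 0.0083%, again Tm7sf2), by DESeq2 (0.333%) or by limma-voom (1.26%). Chka alone of the 8 passed an unadjusted p under 0.05 in edgeR (background 6.88%) and had groups that did not overlap (background 15.3%). The summed level of the 3 of 6 erythroid markers in the tables, none at 0, also did not overlap between these groups, at 55.8 to 138.7 CPM on normal diet and 166.8 to 499.3 with SCL. It was 109.9 to 252.4 on high-fat diet. The summed level of the 6 B and plasma cell markers did not overlap either, at 5.01 to 15.6 CPM on normal diet and 16.1 to 39.8 with SCL. That sum was 8.99 to 25.9 CPM on high-fat diet. The part of either marker set in the Chka values was not tested. The median over the 8 was -0.22, against 0.03 over all tested genes.

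**Figure D4:**
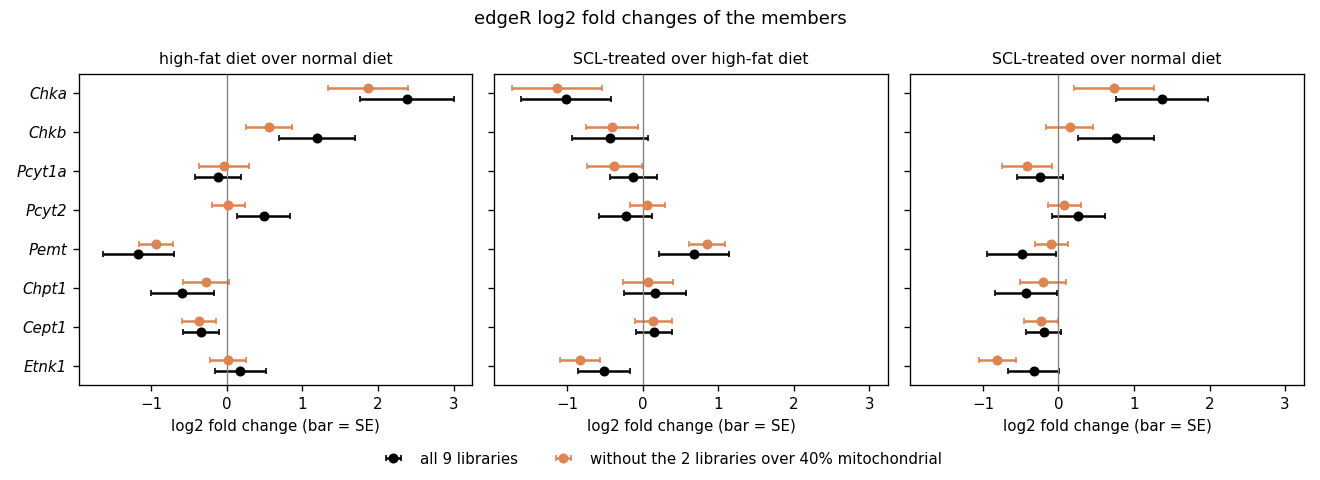
The horizontal axes give the edgeR log2 fold change of each of the 8 genes in the 3 comparisons, with the SE as a bar, from all 9 libraries (black) and without the 2 libraries over 40% mitochondrial reads (orange). For high-fat over normal diet, Chka moves from 2.39 to 1.86 and Chkb from 1.19 to 0.56 when those libraries are left out, while Pemt moves from -1.17 to -0.94.

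Ratios of 2 members within a library do not depend on how libraries are scaled, and are given as FPKM ratios with no test. The ratio of Chka to Chkb was 2.90, 4.01 and 2.96 on normal diet, 4.03, 10.3 and 6.90 on high-fat diet, and 5.10, 4.97 and 4.56 with SCL. All normal-diet libraries had a lower ratio than all the others, although 4.01 and 4.03 are nearly equal, and the ratio in SCL replicate 2, with 49.0% mitochondrial reads, was like that of the other 2 SCL libraries. The ratio of Pemt to Pcyt1a, the methylation route beside the choline branch, was 42.4, 34.5 and 79.5 on normal diet, 19.9, 33.8 and 16.9 on high-fat diet, and 67.4, 11.6 and 52.6 with SCL. The high-fat libraries lay below the normal-diet libraries, though 33.8 and 34.5 are close, and the lowest value was in SCL replicate 2.

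The ratio of Pcyt2 to Pcyt1a, the ethanolamine beside the choline branch, was 17.2, 14.2 and 24.7 on normal diet, 13.6, 25.6 and 47.5 on high-fat diet, and 25.8, 25.4 and 24.0 with SCL. The SCL libraries were close to each other, and the high-fat libraries spanned both other groups. Cept1 to Chpt1 was 0.43, 0.66 and 0.53 on normal diet, 0.34, 0.80 and 1.28 on high-fat diet, and 0.55, 1.01 and 0.48 with SCL. It exceeded 1 only in high-fat replicate 3 and SCL replicate 2.

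**Figure D5:**
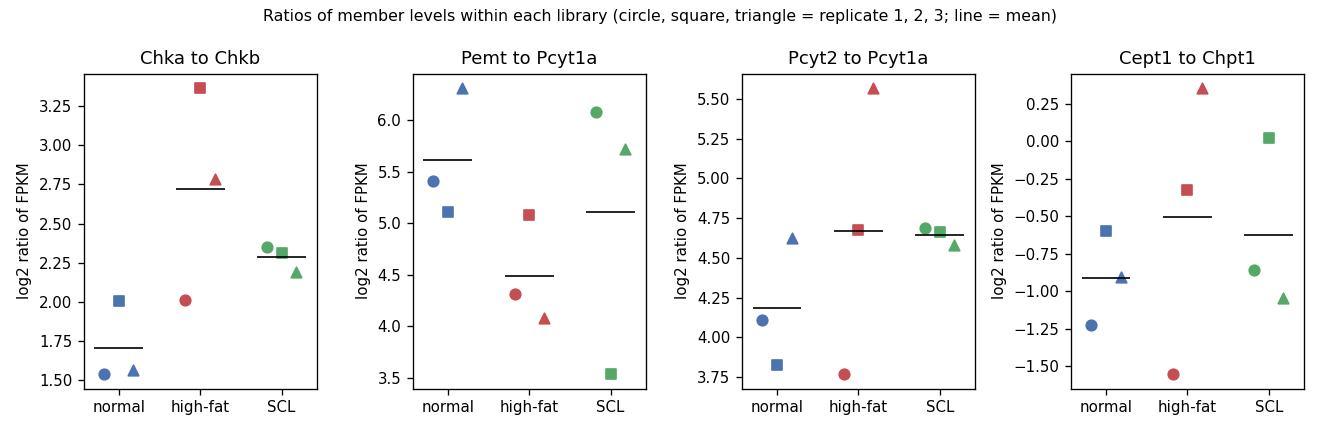
Each panel plots the log2 of a ratio of 2 FPKM values within each library (points: circle, square and triangle for replicates 1, 2 and 3; line: group mean; axes do not start at 0). The ratio of Chka to Chkb has a mean log2 of 1.70 on normal diet, 2.72 on high-fat diet and 2.28 with SCL, and the 3 SCL libraries lie within 2.19 to 2.35.

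The genes nearest to Chka over the 9 libraries were found by the root mean square difference of log2 CPM, each gene centred on its own mean. They were Gpatch4 (0.32), Plppr2 (0.35), Il4i1 (0.37), Tle2 (0.39) and Lilrb4 (0.40), where the spread of Chka itself on that scale was 1.14. Gpatch4 was at 1.95, 2.54 and 2.46 CPM on normal diet, 3.87, 10.4 and 14.6 on high-fat diet, and 3.74, 6.60 and 3.86 with SCL. It thus had the same order of groups and the same high libraries as Chka, at a far lower level. Chkb was place 75 in nearness to Chka (0.54) among the tested genes, and Pemt was near the end of that order (1.81). The genes nearest to Pemt were Gjb2 (0.15), Htra1 (0.21), Pld3 (0.22), Vsig4 (0.23) and F2 (0.23), where the spread of Pemt was 0.76. F2, which encodes prothrombin and is made by hepatocytes, was at 2686, 2496 and 2822 CPM on normal diet, 2024, 2038 and 1034 on high-fat diet, and 2649, 778.1 and 2996 with SCL. Vsig4, among the Kupffer cell and macrophage markers summed above, was at 33.3, 30.1 and 27.6 CPM on normal diet. It was at 16.3, 17.8 and 7.47 CPM on high-fat diet, and 26.0, 9.61 and 34.7 with SCL. The lowest values of F2 and of Vsig4 were in high-fat replicate 3 and SCL replicate 2, as for Pemt. Chpt1 was place 305 in nearness to Pemt (0.45).

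Around these routes, a list of 115 other phospholipid genes had 107 in both tables and 99 tested. For high-fat against normal diet, 34 of the 99 had a positive and 65 a negative log2 difference, with a median of -0.21, and of -0.066 without the 2 libraries over 40% mitochondrial reads. Over all tested genes, 6353 were positive and 5688 negative, with medians of 0.034 and 0.024. None of the 99 was called by edgeR, DESeq2 or limma-voom. Groups that did not overlap were seen for 3 higher and 12 lower of the 99, where 10.6% of all tested genes had such groups. At an unadjusted p under 0.05 in edgeR, which 4.32% of all tested genes passed, there were 0 higher and 4 lower of the 99, a share near that background. They were Agpat3 (-0.85), Gpat3 (-2.31, and -4.47 without the 2 libraries) and Plpp3 (-1.12), which act on the way to diacylglycerol, and Ptdss2 (-0.65), a phosphatidylserine synthase. Gpat3 was at 7.07, 8.64 and 4.48 CPM on normal diet and 0.16, 0.47 and 3.56 on high-fat diet. With SCL it was at 1.02, 0.97 and 0.18 CPM, so its log2 differences here and below rest on few reads. For SCL against high-fat diet, 56 were positive and 43 negative with a median of 0.06, and none passed an unadjusted p under 0.05. Over all tested genes, 5619 were positive and 6422 negative in that comparison. For SCL against normal diet, 39 of the 99 were positive and 60 negative with a median of -0.07. Over all tested genes, 6241 were positive and 5800 negative. Of the 99, 0 were called by edgeR or DESeq2. At an unadjusted p under 0.05 in edgeR, which 6.88% of all tested genes passed, 1 was higher and 8 lower. There, limma-voom called 3 of the 99, all lower, against 1.26% of all tested genes. Gpat3 had a limma-voom log2 difference of -3.59 (adjusted p = 0.041), and -3.93 (adjusted p = 0.12) without the 2 libraries over 40% mitochondrial reads. Lpin1, a phosphatidate phosphatase, had -2.28 (limma-voom adjusted p = 0.038), and -2.37 (0.14) without those libraries. Mfsd2a, a transporter of lysophospholipids, had -2.05 (limma-voom adjusted p = 0.015), and -2.19 (0.034) without them, and was the 1 of the 3 still called. In edgeR, Lpin1 was at -1.33 and Mfsd2a at -1.10 with all libraries, and at -2.16 and -2.09 without the 2.

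By group, the remaining Kennedy enzymes Etnk2 and Selenoi, the ethanolamine phosphotransferase, had log2 differences of 0.055 (SE 0.31) and 0.018 (SE 0.39) for high-fat against normal diet. Of 7 tested choline and ethanolamine transporters, 2 were positive and 5 negative, including the choline transporter Slc44a1 (-0.60, SE 0.34). Of 14 genes of choline oxidation and methyl supply, 4 were positive and 10 negative, with a median of -0.19, and of 0.0056 without the 2 libraries over 40% mitochondrial reads. Mat1a, which makes the methyl donor used by PEMT in liver, had a log2 difference of -0.61 (SE 0.32, edgeR adjusted p = 0.91) and Bhmt, which uses the choline product betaine, -0.23 (SE 0.48), and 0.031 without the 2 libraries. Mat1a was at 1784 ± 85.1 CPM on high-fat and 2718 ± 464 CPM on normal diet (SD, n = 3 each), and its groups did not overlap. The phosphatidylserine route had 3 of 3 negative, with a median of -0.54, and -0.23 without the 2 libraries over 40% mitochondrial reads. Of 14 genes of diacylglycerol supply, 6 were positive and 8 negative, Gpat4 being at 0.079 (SE 0.28). The remodelling acyltransferases had 3 positive and 4 negative of 7, with Lpcat3 at -0.74 (SE 0.36) and Lpgat1 at -0.43 (SE 0.58). The breakdown genes had 10 positive and 11 negative of 21, with Pnpla7 at 0.45 (SE 0.50), and at -0.40 without the 2 libraries, and Lypla1 at 0.16 (SE 0.27).

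Phospholipid transfer and export had 2 positive and 6 negative of 8, with Stard10, a phospholipid transfer protein, at 0.27 (SE 0.33) and Lcat at -0.22 (SE 0.33). The inositol and cardiolipin branch had 2 positive and 8 negative of 10, with Crls1, the cardiolipin synthase, at -0.28 (SE 0.29) and Cdipt at -0.18 (SE 0.29), and at 0.0062 without the 2 libraries over 40% mitochondrial reads. Sphingomyelin synthesis, which uses phosphatidylcholine, had 2 positive and 6 negative of 8, with Cers2 at -0.28 (SE 0.40), and at 0.0016 without those libraries, and Degs1 at -0.21 (SE 0.26). Ether phospholipid synthesis had 1 positive and 4 negative of 5, with Gnpat at -0.082 (SE 0.22) and Pex7 at -0.053 (SE 0.27), and at 0.024 without them.

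Regulators named for these routes were 11, all tested, 6 positive and 5 negative for high-fat against normal diet. Srebf1, a transcription factor of fatty acid synthesis, was at 97.1, 32.7 and 34.3 CPM on normal diet, 552, 169 and 38.6 on high-fat diet, and 101, 105 and 328 with SCL. Srebf1 was highest in high-fat replicate 1, the high-fat library in which Chka was lowest. Its log2 difference was 2.21 (SE 0.86, edgeR adjusted p = 0.91). Srebf2, which controls sterol synthesis, was at 73.8, 56.3 and 42.3 CPM on normal diet and between 20.4 and 36.0 in the 6 other libraries, with a log2 difference of -1.13 (SE 0.31, edgeR adjusted p = 0.81). Pparg, a nuclear receptor of lipid storage, was at 1.11 (SE 0.41, edgeR adjusted p = 0.91). Of 16 tested clock genes, 8 were positive and 8 negative, with Nfil3 at 0.31 (SE 0.46), and at -0.26 without the 2 libraries over 40% mitochondrial reads, and Clock at 0.12 (SE 0.27). Per2, a clock repressor, was at 2.44, 1.96 and 1.88 CPM on normal diet, 9.04, 6.20 and 24.1 on high-fat diet, and 5.17, 14.8 and 7.46 with SCL. All 6 other libraries thus lay above the normal-diet libraries, and DESeq2 called Per2 for high-fat against normal diet (DESeq2 log2 difference 2.64, adjusted p = 0.0033, edgeR adjusted p = 0.53). Without the 2 libraries over 40% mitochondrial reads DESeq2 still called it, with a log2 difference of 1.87 (adjusted p = 0.0049).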

How the data were processed

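Rat liver RNA was sequenced by the authors as 9 libraries, from Trizol extracts with a NEBNext Ultra kit, per the labels' protocols. The deposited tables give, per gene symbol, raw read counts, a signal that is the count divided by a size factor, and FPKM, per the file headers and their values. The authors' log2 fold changes and p-values come from the deposited tables, with DESeq2 named in the submitters' processing notes. Those notes also name the mouse build mm9, although the organism is rat, and how reads were aligned and counted is not given in the sources used here. The counts of libraries shared by both tables were identical.

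For the 15565 genes in both tables, the counts were fitted in edgeR 4.0.16 under R 4.3.3 (quasi-likelihood test, all 9 libraries, group only, filterByExpr with a minimum count of 10, TMM, 6 residual degrees of freedom, Benjamini-Hochberg adjustment, threshold 0.05). Alternatives were DESeq2 1.42.0, limma-voom with quality weights (limma 3.58.1), other scalings and filters, a mitochondrial covariate, a replicate block, and libraries left out. The self-test on simulated data was run before the fits. Ratios and levels used the authors' FPKM; Python 3.11.15, pandas 2.3.3 and matplotlib 3.10.9 made tables and figures.

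Members and gene lists were chosen with earlier results of these data known. Named genes were the 8 members, each list's called genes or else its 2 most abundant tested genes, and the 5 genes nearest to Chka and to Pemt; any other gene was named after its values were seen, as were the 3 promoters. One gene that this rule names is not reported here. Deposited symbols matched RefSeq (GRCr8) for 92.6% of genes, and 8 of 8 members had a promoter there.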

Additional observations from a re-analysis of the deposited data

How the results depend on the processing

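No member passed an adjusted p of 0.05 in any edgeR setting run. For high-fat against normal diet, edgeR called 1 of all tested genes; DESeq2 called 50 and limma-voom 26, among them 1 member in each, Chka. With 1 library left out, DESeq2 called from 14 (without normal-diet replicate 2) to 825 (without high-fat replicate 1), and without the libraries over 40% mitochondrial reads it called 56 and limma-voom 0. The edgeR count was 2 with no count filter and 2 at an adjusted p under 0.1. It was 0 with library totals only, 0 without the libraries over 40% mitochondrial reads, and 0 from only the 6 libraries compared. Leaving out 1 library gave 1 to 4 genes in edgeR, namely 4 when normal-diet replicate 3 and 2 when high-fat replicate 3 was left out. For SCL against high-fat diet, where edgeR called 0, DESeq2 called 1. For SCL against normal diet, where edgeR called 1, DESeq2 called 40 and limma-voom 152. There, edgeR called 0 with library totals only or without the libraries over 40% mitochondrial reads. Leaving out 1 library there gave 0 to 1 in edgeR, with 1 called only when normal-diet replicate 3 was left out. Without the libraries over 40% mitochondrial reads, limma-voom called 5.

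The Chka difference between high-fat and normal diet stayed positive over 16 alternatives, from 1.10 to 2.83, and that of Pemt stayed negative, from -1.36 to -0.73. The sign turned only for differences that did not pass the threshold. With the mitochondrial share as a covariate, Pcyt1a was at 0.0093 and Etnk1 at -0.13 for high-fat against normal diet, and Chkb at -0.14, Pcyt2 at -0.11 and Chpt1 at 0.038 for SCL against normal diet. For SCL against high-fat diet, Pcyt2 was at 0.060 without the libraries over 40% mitochondrial reads and Chpt1 at -0.068 with library totals only, a scaling that also moved the median of all genes by -0.16 there and by -0.23 for SCL against normal diet. Leaving out 1 library moved Pcyt1a over -0.35 to 0.092 for high-fat against normal diet. For SCL against high-fat diet it moved Chkb over -1.03 to 0.20, Pcyt1a over -0.28 to 0.10, Pcyt2 over -0.45 to 0.24 and Chpt1 over -0.16 to 0.72. The cause of these turns was not tested.

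Deviations from the group means had correlations of -0.35 to 0.60 between same-numbered libraries, and of -0.69 to 0.54 between differently numbered ones. The deviations of 3 libraries from their own mean are tied to each other. These correlations therefore cannot decide whether replicate numbers pair the libraries. With the replicate block, 1 gene was called for high-fat against normal diet, 0 for SCL against high-fat diet and 1 for SCL against normal diet, and Chka was at 2.16 (edgeR adjusted p = 0.75). The fits of Chka, Per2, Gpat3, Lpin1 and Mfsd2a in DESeq2 or limma-voom with libraries left out or a covariate were chosen after seeing the data. Groups of 3, and 2 libraries with much of their depth in mitochondrial reads, limit the precision of all values.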
